A study of Mus musculus with 6 samples.

Results

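The genes described here are 38 genes of skeletal muscle, made up of the proteins of the sarcomere, the energy and calcium proteins of the muscle fibre, receptor subunits of the nerve-muscle contact and the transcription factors of the muscle lineage. They were taken from a list of gene names, and all 38 were found among the 46078 genes that the count tables hold. The RNA came from growth plate cartilage of mouse embryos at E18.5, dissected from the distal femur and the proximal tibia. The 3 control libraries carried the genotype Idh1 LSL/+ and the 3 Idh1 mutant libraries carried Col2a1-Cre; Idh1 LSL/+. Both groups therefore held an Idh1 allele behind a lox-stop-lox (LSL) cassette, and the controls lacked Cre. Cre was driven by regulatory elements of Col2a1, the type II collagen gene, which is a gene of chondrocytes, and whether Cre acted in muscle cells was not measured here. Cre itself was present in the mutants alone, so its presence and that of the mutant protein cannot be told apart. The labels gave the age as E18.5 and, in the text on animal care, as 2 months, and the controls were littermates by the study's methods. Which library came from which litter was not given in the sources used here, so that p-values measure the spread between these libraries.

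Skeletal muscle fibres contract when myosin motors of the thick filament pull on actin in the thin filament, with titin, nebulin and the alpha-actinins holding both in register. The fibre is switched on by acetylcholine at the nerve-muscle contact, the signal releases calcium from the sarcoplasmic reticulum, and calcium binding to troponin frees the actin for myosin. Myosins, troponins and receptor subunits come in developmental, slow and fast forms that replace each other as a muscle matures. Cartilage makes none of these fibres, but muscles insert beside the growth plate, and the protocol in the labels states that the tissue around the growth plates was dissected away.

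The libraries held 23445687 to 30415773 counted reads, which puts 3 counts, the smallest level taken as seen, at 0.0986 to 0.128 CPM (counts scaled by the library's total so that libraries of any depth can be compared). That limit covers counting error only. The cartilage genes were present, with Col2a1 at 1921 to 5239.8 CPM and Acan, the gene of aggrecan, at 711 to 894 CPM. The targeted gene, Idh1, had 37.2, 39.1 and 65.3 CPM in controls 1 to 3 and 47.5, 47.7 and 56.3 CPM in mutants 1 to 3. These groups overlapped (log2 fold change 0.10 ± 0.19 SE, adjusted p = 0.940, from edgeR's quasi-likelihood fit and Benjamini-Hochberg adjustment), and counts over the whole gene do not tell the alleles apart. The female-expressed transcript Xist had 26356 counts in mutant 3 and 0 to 13 counts in each of the other libraries, so mutant 3 differed from the rest of both groups in this sex-linked transcript.

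The muscle genes were abundant in every library. Reads of the 38 genes made up 2.53%, 2.67% and 3.50% of all counted reads in controls 1, 2 and 3, and 3.46%, 3.25% and 2.30% in mutants 1, 2 and 3. As a sum of CPM after TMM scaling, the level was 24861, 26449 and 36324 in controls 1 to 3 and 34295, 32349 and 23022 in mutants 1 to 3. The lowest library, mutant 3, and the highest, control 3, stood 1.58-fold apart, and the groups overlapped over most of that range. The group means were 29211 ± 6211 CPM for the controls and 29889 ± 6026 CPM for the mutants (SD, n = 3 each), a log2 difference of 0.03 beside a pooled SD of 0.30. In bulk RNA, fewer muscle cells and less muscle RNA per cell cannot be told apart. The 10 members with a mean above 1000 CPM gave 78.9% of the summed level.

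**Figure D1:**
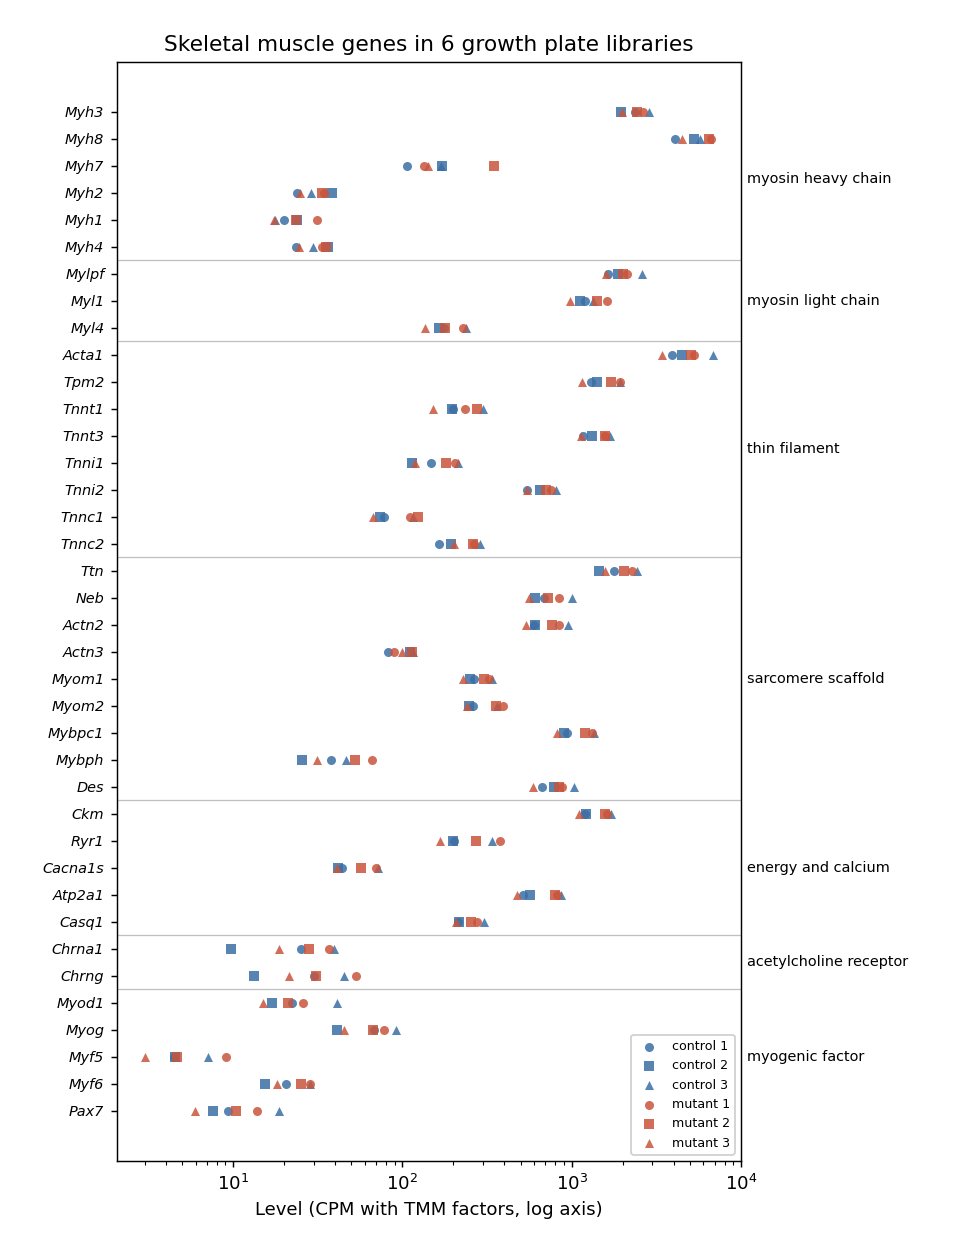
Level of each of the 38 genes in each of the 6 libraries, in CPM on a log axis, with control and Idh1 mutant libraries as separate symbols and genes grouped by role. The genes lie between 3.03 CPM (Myf5 in mutant 3) and 6806 CPM (Acta1 in control 3), and the symbols of both groups overlap for every gene.

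Corrected for exon length (CPM per kilobase of exon, RPKM), the order of the mean levels began with Acta1, the actin of skeletal muscle thin filaments, at 3376 RPKM. Mylpf, the regulatory light chain of fast myosin, followed at 2226 RPKM, and Acta1 was above Mylpf in all 6 libraries although their ranges overlapped. Tnnt3, the fast troponin T, at 1011 RPKM and Ckm, the muscle creatine kinase, at 990.1 RPKM came next and did not keep 1 order, with Tnnt3 above Ckm in 4 of 6 libraries. The lower end of the order was held by Myf5 at 2.63 RPKM and Pax7 at 1.87 RPKM. Of the 37 pairs of neighbours in this order, 3 had ranges over the libraries that did not meet, those between Mylpf and Tnnt3, between Ckm and Myl1 and between Tnnc1 and Myom1. In 17 of the 37 pairs the same gene was higher in all 6 libraries. Among all genes of the tables, Acta1 ranked 8 by this measure, Mylpf 12, Tnnt3 28 and Ckm 29. Of the exon bases of Ckm, 31.9% are also exon of A930016O22Rik on the other strand. Reads in overlapping genes were not counted, so the level of Ckm and its place may be too low.

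The myosin heavy chains, the motors themselves, were mainly those of developing muscle. Myh3, the embryonic chain, had 2368, 1952 and 2879 CPM in controls 1 to 3 and 2622, 2434 and 1984 CPM in mutants 1 to 3. Myh8, the perinatal (neonatal) chain, had 4105, 5271 and 5697 CPM in controls 1 to 3 and 6689.8, 6442 and 4516 CPM in mutants 1 to 3. Control 1 was lowest for Myh8 and mutant 1 was highest, and both genes overlapped between groups. The log2 fold change was -0.03 ± 0.16 (SE) for Myh3 and 0.23 ± 0.18 for Myh8. Per exon length, Myh8 made 52.0% of the 6 heavy chains measured (45.7% to 55.6% over the libraries) and Myh3 made 44.3% (40.0% to 51.3%). The adult fast chains were minor, with Myh4 (type IIb) at 0.573%, Myh2 (type IIa) at 0.488% and Myh1 (type IIx) at 0.396%. Their levels were 23.6 to 36.3 CPM for Myh4, 23.9 to 38.6 CPM for Myh2 and 17.3 to 31.2 CPM for Myh1.

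Myh7, the slow chain, was at 2.31% of the heavy chains on average. It had 107, 171 and 169 CPM in controls 1 to 3 and 133, 348 and 141 CPM in mutants 1 to 3. Mutant 2 stood apart with 4.04% of the heavy chains, while the other 5 libraries held 1.51% to 2.47%. The fitted log2 fold change of Myh7, 0.48 ± 0.34, was the highest of the 38 and rested on that library, since without mutant 2 it was -0.11. Reads of 50 bases can be shared between heavy chains, and 69.5% of the 50-base windows of Myh1, 75.4% of Myh2, 80.0% of Myh7, 81.1% of Myh4, 87.9% of Myh8 and 95.2% of Myh3 occurred in no other annotated gene. Reads that fit several genes were left out by the counting, so the levels of Myh1 and Myh2 are the least certain of the 6. Of the exon bases of Myh7, 13.3% are also exon of Mhrt, Gm31251 or Gm29015 on the other strand, so its level may be too low.

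**Figure D2:**
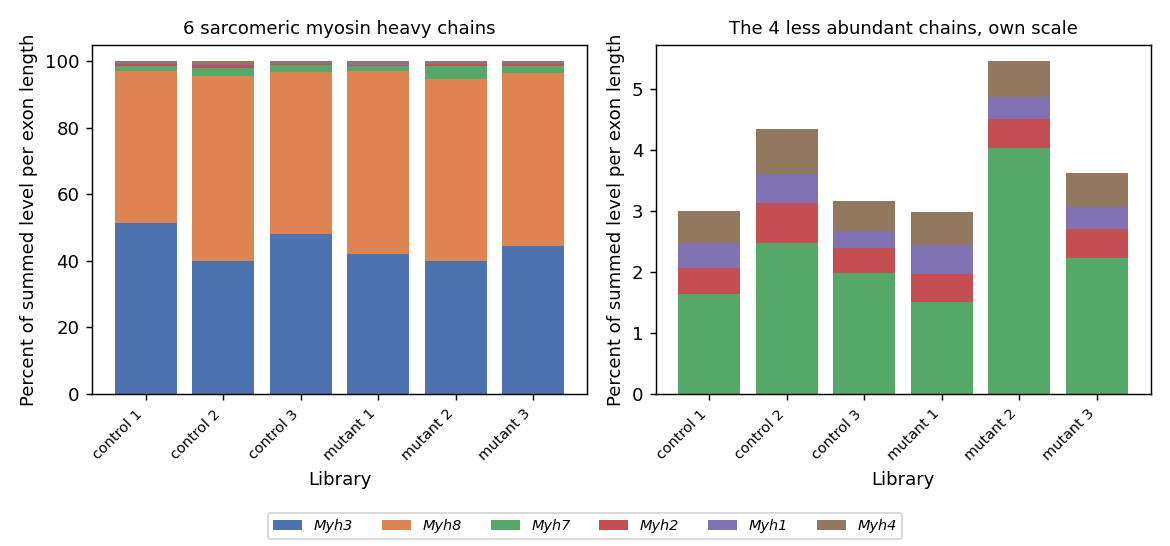
Share of each of 6 sarcomeric myosin heavy chains in their summed level per exon length, in percent, as stacked bars for each library (left), and the 4 less abundant chains on an axis of their own (right). Myh3 and Myh8 fill nearly the whole bar in every library, and Myh7 reaches 4.04% in mutant 2.

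Myh3, Myh2, Myh1, Myh4 and Myh8 lie in this order within 1 cluster on chromosome 11, from 67078300 to 67308634 (GRCm38). Myh3 and Myh8 are the outer genes of these 5 and the abundant chains here. The 250 bases in front of their RefSeq starts are printed because they can be read against the E-box, CANNTG, the letters that the MyoD family of factors binds. The sequences are from RefSeq (GRCm38.p6), 5′ to 3′ in the direction of the gene, and capitals mark E-boxes.
Myh3 promoter, chr11:67078050-67078299, forward strand: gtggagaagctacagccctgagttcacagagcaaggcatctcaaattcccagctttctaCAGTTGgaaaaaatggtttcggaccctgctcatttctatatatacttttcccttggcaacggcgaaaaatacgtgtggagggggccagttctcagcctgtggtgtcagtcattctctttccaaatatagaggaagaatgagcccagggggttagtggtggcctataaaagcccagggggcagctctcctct
Myh8 promoter, chr11:67276874-67277123, forward strand: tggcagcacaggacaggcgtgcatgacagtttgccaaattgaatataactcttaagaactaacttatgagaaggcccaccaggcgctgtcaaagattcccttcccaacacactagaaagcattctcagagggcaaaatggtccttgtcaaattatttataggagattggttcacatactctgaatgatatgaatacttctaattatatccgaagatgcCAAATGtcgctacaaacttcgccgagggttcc
Each held 1 E-box, CAGTTG with its first base 191 bases before the start of Myh3 and CAAATG with its first base 32 bases before the start of Myh8. These are matches of letters and not measured binding sites.

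RefSeq promoters were given for 31 of the 38 genes, as 33 windows of 250 bases, and there was no entry for Myf6, Tnnt3, Myod1, Neb, Actn3, Myom2 and Tnni2. CANNTG reads the same on both strands as a pattern, and it occurred in 27 of the 33 windows (81.8%) beside 66.2% of all 32851 promoter windows. CAGCTG, a form of it that is its own reverse complement, occurred in 16 of the 33 (48.5%) beside 13.0% of all windows, and each such site is also counted under CANNTG. Chrna1 and Chrng were the members with at least 2 copies of CAGCTG, which 1.26% of all windows had.

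Among the light chains, Mylpf had 1634, 1870.5 and 2586 CPM in controls 1 to 3 and 2127, 2005 and 1597 CPM in mutants 1 to 3. Myl1, the fast essential light chain, had 1201, 1123 and 1330.0 CPM in controls 1 to 3 and 1608, 1417 and 981 CPM in mutants 1 to 3. Myl4, the light chain of embryonic and atrial muscle, had 177, 165 and 236 CPM in controls 1 to 3 and 227, 178 and 137 CPM in mutants 1 to 3. Mutant 3 was lowest for all 3, and the groups overlapped for all 3. The log2 fold changes were -0.09 ± 0.18 for Mylpf, 0.13 ± 0.17 for Myl1 and -0.09 ± 0.18 for Myl4.

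In the thin filament, Acta1 had 3927, 4512 and 6806 CPM in controls 1 to 3 and 5283, 5059 and 3437 CPM in mutants 1 to 3. Control 3 was the highest library and mutant 3 the lowest, and the means of 5081 ± 1522 and 4593 ± 1008 CPM (SD, n = 3 each) overlapped widely (log2 fold change -0.15 ± 0.23). Tpm2, the beta-tropomyosin that covers the myosin sites on actin, had 1152 to 1941 CPM. The troponins were mainly of the fast form, with Tnnt3 at 1132 to 1679 CPM against 152 to 299 CPM for Tnnt1, the slow troponin T. The inhibitory subunit showed the same order, with Tnni2 (fast) at 544 to 811 CPM and Tnni1 (slow) at 114 to 213 CPM. For the calcium-binding subunit, Tnnc2 (fast) was at 166 to 288 CPM and Tnnc1 (slow and cardiac) at 66.6 to 123 CPM. Within every library the fast gene was above the slow gene for all 3 subunits, also per exon length. For Tnnc2, 74.0% of the exon bases are also exon of Ube2c on the other strand, and 52.1% of its 50-base windows occurred in no other gene. The counting ignored strand, so that reads in the shared stretch could not be given to either gene.

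Of the proteins that hold the sarcomere together, Ttn, titin, had 1769, 1458 and 2441 CPM in controls 1 to 3 and 2283, 2045 and 1568 CPM in mutants 1 to 3, and Neb, nebulin, had 562 to 1011 CPM. Their very long exons make these CPM large, and per length they stood at 16.5 and 28.0 RPKM. Actn2, an alpha-actinin of the Z-disc, had 537 to 949 CPM and Actn3, the form of fast fibres, 82.6 to 116 CPM, so that Actn2 made 84.3% of both per exon length (80.9% to 88.1%). Mybpc1, the slow myosin-binding protein C, had 819 to 1357 CPM, Des, the intermediate filament desmin, 592 to 1035 CPM, and the M-band proteins Myom1 and Myom2 had 229 to 339.7 CPM and 241 to 391 CPM. Mybph, myosin-binding protein H, had 37.9, 25.4 and 46.7 CPM in controls 1 to 3 and 66.3, 52.3 and 31.1 CPM in mutants 1 to 3. Mutants 1 and 2 were above all controls and mutant 3 was below 2 of them. Mybph had the lowest p of the 38 genes (unadjusted p = 0.131, adjusted p = 0.714, edgeR's quasi-likelihood test), with a log2 fold change of 0.44 ± 0.27. Of its exon bases, 49.9% are also exon of Adora1 on the other strand.

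The energy and calcium genes were Ckm, which regenerates ATP at the sarcomere, at 1102 to 1705 CPM, and Atp2a1, the calcium pump of fast fibres, at 474 to 865 CPM. Ryr1, the calcium release channel, had 203, 199.7 and 340.5 CPM in controls 1 to 3 and 378, 273 and 166 CPM in mutants 1 to 3. Cacna1s, the voltage sensor coupled to it, had 40.9 to 71.5 CPM, and Casq1, which stores calcium in the reticulum, had 206 to 302 CPM. Mutant 3 was lowest for all 5 of these genes. Their log2 fold changes lay between 0.00 for Casq1 and 0.14 for Ryr1, each smaller than its standard error.

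Chrna1 and Chrng encode the alpha and gamma subunits of the muscle acetylcholine receptor, and the gamma subunit is the fetal form that the epsilon subunit (Chrne) replaces. Chrna1 had 25.3, 9.74 and 39.4 CPM in controls 1 to 3 and 36.9, 28.2 and 18.7 CPM in mutants 1 to 3. Chrng had 30.1, 13.2 and 45.2 CPM in controls 1 to 3 and 53.3, 30.8 and 21.3 CPM in mutants 1 to 3. Control 2 was lowest for both and held 299 counts of Chrna1 and 406 of Chrng, well above the limit of 3 counts. Chrne had 0, 3 and 8 counts in controls 1 to 3 and 11, 3 and 5 in mutants 1 to 3, so that reads of the gamma subunit outnumbered them in every library. The windows in front of both RefSeq starts are printed as the only members with at least 2 CAGCTG, with E-boxes in capitals and the same build and direction as above.
Chrna1 promoter, chr2:73580339-73580588, reverse strand: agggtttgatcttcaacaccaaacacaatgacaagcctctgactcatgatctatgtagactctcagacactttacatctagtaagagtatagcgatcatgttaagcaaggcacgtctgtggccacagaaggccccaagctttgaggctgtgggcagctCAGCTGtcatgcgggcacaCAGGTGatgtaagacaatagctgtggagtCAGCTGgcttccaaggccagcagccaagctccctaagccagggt
Chrng promoter, chr1:87205561-87205810, forward strand: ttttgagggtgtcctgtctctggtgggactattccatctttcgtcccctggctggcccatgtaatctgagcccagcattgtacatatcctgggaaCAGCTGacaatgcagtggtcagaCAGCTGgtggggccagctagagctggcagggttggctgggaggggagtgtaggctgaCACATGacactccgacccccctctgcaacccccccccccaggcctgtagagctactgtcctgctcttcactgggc
In Chrna1 the first bases lay 92 (CAGCTG), 73 (CAGGTG) and 44 (CAGCTG) bases before the start, and in Chrng 155 (CAGCTG), 132 (CAGCTG) and 75 (CACATG) bases before it. A longer form of Chrng begins further upstream in the annotation, at 87204657 on chromosome 1, so its window lies inside the gene as counted.

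The transcription factors of the lineage were all detected, with means of 1.87 to 43.5 RPKM. Myog, which drives the last steps of muscle differentiation, had 68.3, 40.8 and 91.2 CPM in controls 1 to 3 and 77.5, 66.9 and 45.5 CPM in mutants 1 to 3. Myod1, the factor of committed myoblasts, had 22.4, 16.9 and 40.9 CPM in controls 1 to 3 and 25.9, 21.1 and 15.1 CPM in mutants 1 to 3. Control 3 was highest and mutant 3 lowest for Myod1, whose log2 fold change of -0.37 ± 0.30 was the lowest of the 38. Myf6, the factor of mature fibres, had 15.5 to 28.5 CPM, and Myf5, the early factor, had 3.03 to 9.02 CPM and at least 88 counts in every library. Pax7, which marks satellite cells, the stem cells of muscle, had 9.30, 7.56 and 18.8 CPM in controls 1 to 3 and 13.8, 10.4 and 5.92 CPM in mutants 1 to 3. The groups overlapped for all 5 factors. Per exon length, Myog made 56.3% of the 4 factors of the MyoD family, Myf6 24.0%, Myod1 16.4% and Myf5 3.39%. The share of Myod1 was 15.8%, 17.9% and 20.2% in controls 1 to 3 and 15.0%, 14.5% and 14.9% in mutants 1 to 3, which did not overlap. The share of Myf6 did not overlap either and ran the other way, at 21.5%, 24.4% and 20.8% in controls 1 to 3 and 24.6%, 25.6% and 26.8% in mutants 1 to 3. Shares of 1 sum are tied to each other, 14.4% of all genes tested had levels without overlap between the groups, and the shares were looked at after their values were seen and were not tested.

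Between Idh1 mutants and controls, 0 of the 38 genes passed an adjusted p of 0.05 in edgeR's quasi-likelihood test, and 0 had an unadjusted p under 0.05. DESeq2 also called 0 of them, with 0 at an unadjusted p under 0.05. All 38 passed the filter on low counts and were tested. Of all 16813 genes tested, 32 were called (0.19%), 9 of them higher in the mutants (0.0535%) and 23 lower (0.137%), and 8.64% had an unadjusted p under 0.05. The control and mutant libraries did not overlap for 14.4% of all genes and for 0 of the 38. The log2 fold change was above 0 for 26 of the 38 and below 0 for 12, with a median of 0.05 beside -0.0026 over all genes tested. The values lay between -0.37 for Myod1 and 0.48 for Myh7, and the low count of calls does not show that the groups were alike.

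**Figure D3:**
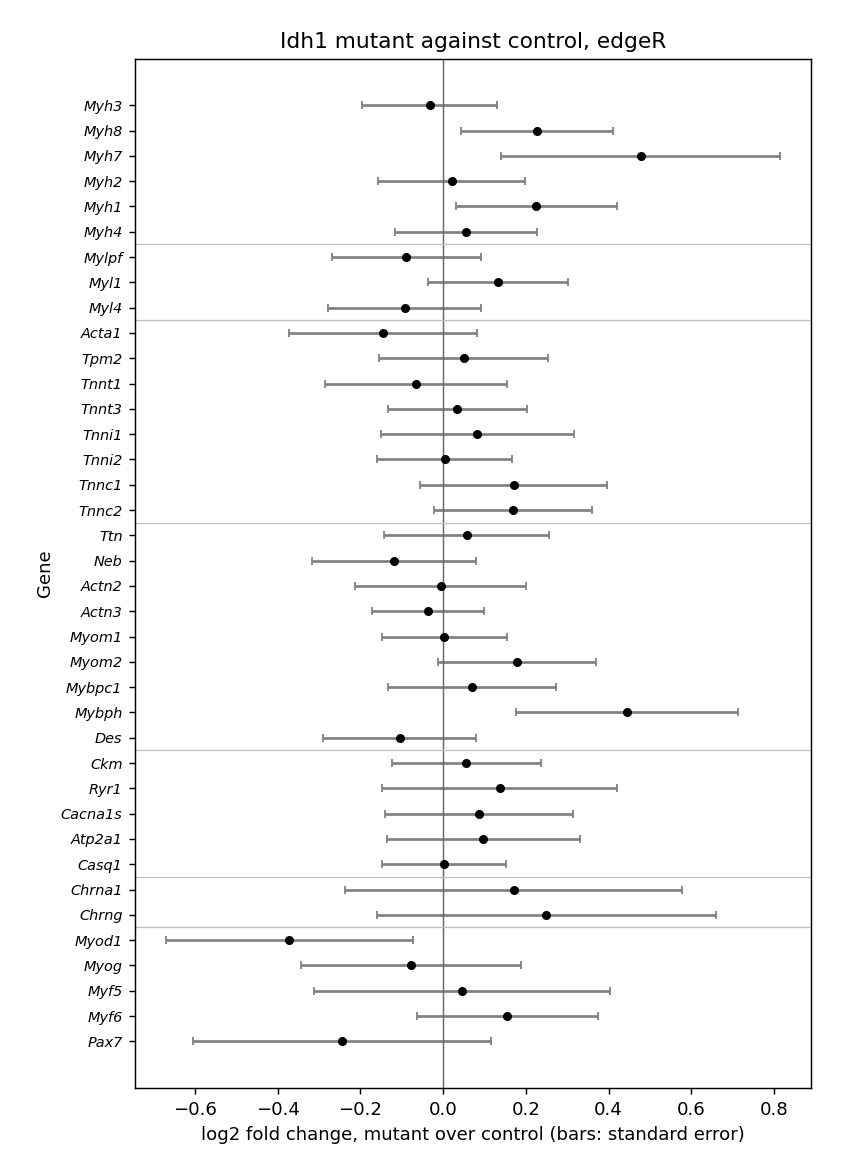
Log2 fold change of each of the 38 genes, Idh1 mutant over control, from edgeR's quasi-likelihood fit, with bars of 1 standard error and lines between the groups of genes by role. The values run from -0.37 for Myod1 to 0.48 for Myh7, and 0 of the 38 genes passed the threshold.

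The spread within the groups was wide for these genes. The median SD of the log2 level within groups was 0.344 for the 38 genes beside 0.165 for the genes tested, and all 38 lay above that median of the tested genes. The median biological coefficient of variation fitted by edgeR was 0.176 beside 0.119. The libraries differed in the muscle genes together, as control 3 was highest for 24 of the 38 and mutant 1 for 10, while mutant 3 was lowest for 23, control 2 for 8 and control 1 for 7. Over all genes tested, control 3 was highest for 19.7% and mutant 1 for 14.8%. Mutant 3 was lowest for 15.5% of them, control 2 for 19.6% and control 1 for 14.5%. The direction of the group difference rested on single libraries accordingly. Without control 3, 37 of the 38 genes were above 0 with a median of 0.24, and without mutant 3, 36 were above 0 with a median of 0.21. Without mutant 1, 9 were above 0 and the median was -0.09, and 0 of the 38 were called without any of the 6 libraries.

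**Figure D4:**
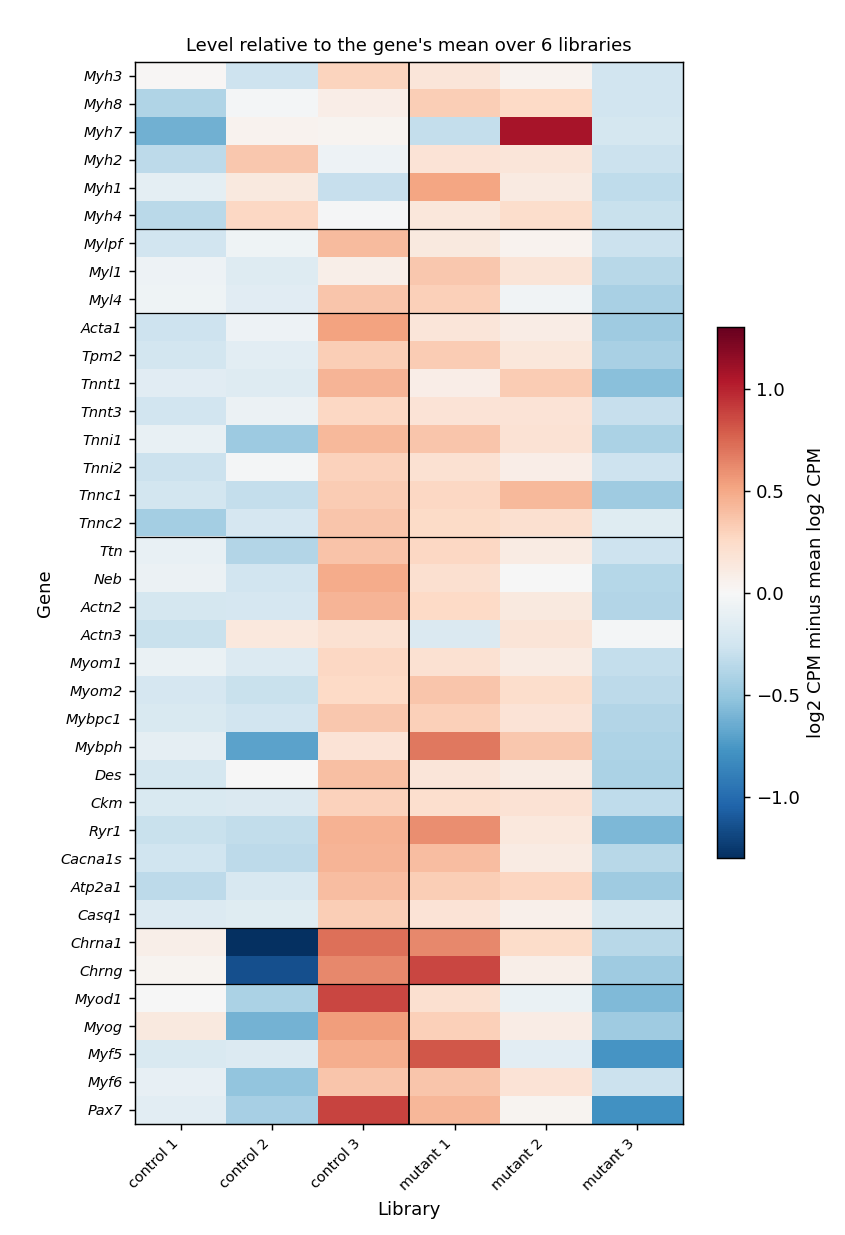
Log2 CPM of each of the 38 genes minus the gene's mean log2 CPM over the 6 libraries, as colour (red above the mean, blue below), with genes in rows grouped by role and libraries in columns. The columns of control 3 and mutant 3 are mostly red and mostly blue, as control 3 was highest for 24 genes and mutant 3 lowest for 23, and the strongest red is Myh7 in mutant 2 (348 CPM) and the strongest blue Chrna1 in control 2 (9.74 CPM).

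When each gene was divided by the summed level of the 38 genes in its library, the median SD over the 6 libraries dropped from 0.316 to 0.141 on the log2 scale, and it became smaller for 35 of the 38 genes. Each gene is part of the sum it was divided by, which matters most for the abundant genes. Some of the less abundant genes kept large deviations from their own mean. Chrna1 and Chrng in control 2 were at -1.16 and -1.01, Myh7 in mutant 2 was at 0.92, and Chrng in mutant 1 was at 0.63. Pax7 and Myod1 were at 0.56 and 0.55 in control 3. As medians by role, the receptor subunits in control 2 (-1.08) lay lowest, followed by the myosin heavy chains in control 3 (-0.31) and the myogenic factors in control 2 (-0.29), while the median of the thin filament genes stayed between -0.08 and 0.03 in every library.

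Ratios of a developmental or slow form to its partner compare genes within a library and do not depend on how much muscle RNA it held. Of such ratios, 6 were tested by an exact two-sided permutation test, 3 libraries against 3, whose smallest possible p is 0.1, so that none could pass 0.05. Myh3 to Myh8, per exon length, was 1.12, 0.720 and 0.982 in controls 1 to 3 and 0.762, 0.734 and 0.854 in mutants 1 to 3. The controls ran higher but overlapped with the mutants, at a log2 difference of -0.24 (exact p = 0.4, adjusted p = 1.0), which was -0.11 without control 1 and -0.42 without control 2. Myl4 to Myl1 was 0.0657, 0.0658 and 0.0795 in controls 1 to 3 and 0.0632, 0.0562 and 0.0624 in mutants 1 to 3. It was the only ratio of the 6 whose groups did not overlap, with a log2 difference of -0.21 at the smallest possible exact p of 0.1 (adjusted p = 0.6 over the 6 ratios). Of all genes tested, 14.4% had levels without overlap, so 1 such ratio among 6 does not set this pair apart. Without control 3 that difference was -0.12. Myh7 to the summed adult fast chains was 1.20, 1.31 and 1.67 in controls 1 to 3 and 1.02, 2.83 and 1.59 in mutants 1 to 3 (log2 difference 0.27, exact p = 0.7). The slow to fast ratios of the troponins were far below 1 and overlapped between groups. Their ranges over the 6 libraries were 0.0848 to 0.112 for Tnnt1 to Tnnt3 (log2 difference -0.12, exact p = 0.5), 0.0734 to 0.114 for Tnni1 to Tnni2 (0.08, exact p = 0.9) and 0.254 to 0.363 for Tnnc1 to Tnnc2 (-0.05, exact p = 1.0). The height of a ratio depends on the length it is divided by, and with 50-base windows found in no other gene the mean over the 6 libraries was 0.155 in place of 0.316 for Tnnc1 to Tnnc2 and 0.144 in place of 0.101 for Tnnt1 to Tnnt3.

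**Figure D5:**
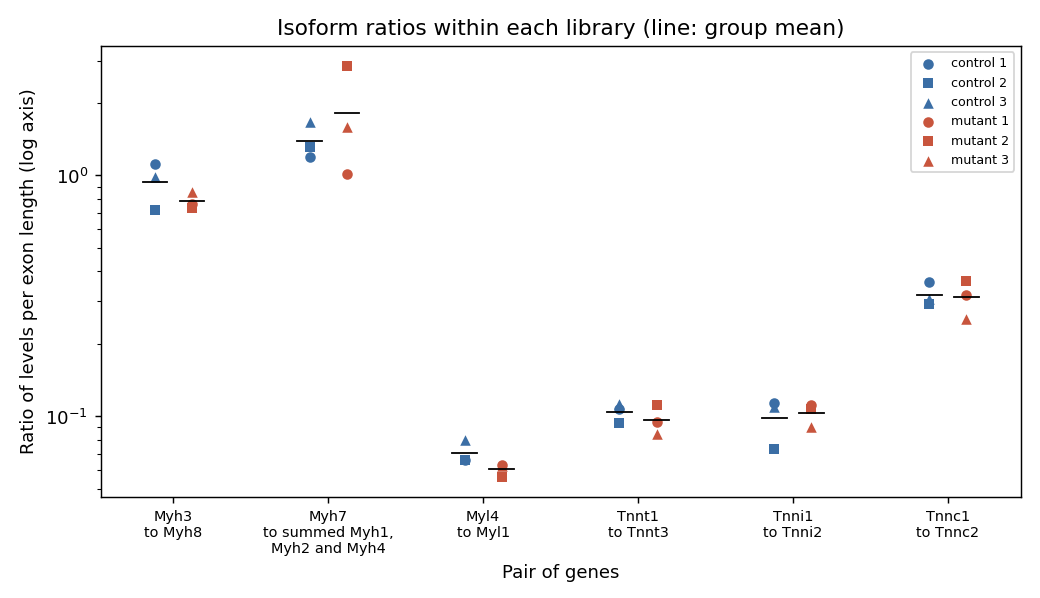
Ratio of the levels per exon length of 2 forms within each library, on a log axis, for 6 pairs, with control libraries in blue, Idh1 mutant libraries in red and lines at the group means. The groups overlap for 5 pairs, and for Myl4 to Myl1 the controls (0.0657 to 0.0795) lie above the mutants (0.0562 to 0.0632). Of all genes tested, 14.4% had levels without overlap between the groups.

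Other genes of the muscle programme were read in 5 further lists, and edgeR and DESeq2 each called 0 genes in every list. Of 30 further sarcomere and Z-disc genes, 18 had a log2 fold change above 0 with a median of 0.04 and 0 had an unadjusted p under 0.05. The most abundant were Actc1, the cardiac actin that fetal skeletal muscle also uses, at 1394 to 2296 CPM, Tpm1 at 1136 to 1623 CPM and the Z-disc gene Ldb3 at 234 to 445 CPM. Of 18 further genes of excitation and calcium handling, 11 were above 0 with a median of 0.02, and Srl (329 to 567 CPM), Casq2 (296 to 456 CPM) and Hrc (109 to 169 CPM), genes of the sarcoplasmic reticulum, were the most abundant. Of 16 genes of muscle energy metabolism, 15 were above 0 with a median of 0.14, and the glycolytic genes Aldoa (1029 to 1436 CPM), Ldha (751 to 877 CPM) and Eno3 (495 to 763 CPM) led them. Aldoa and Ldha are used by most cells, chondrocytes included. Of 20 further regulators of the lineage, 19 were tested (Pax3 was not), 7 were above 0 and the median was -0.05, with Mef2c (192 to 274 CPM), Mef2d (118 to 176 CPM) and Mef2a (115 to 128 CPM) the most abundant. Of 18 genes of the nerve-muscle contact and the membrane complex, 17 were tested (Chrne was not), 10 were above 0 and the median was 0.01, led by Utrn (160.0 to 208 CPM), Sgcb (112 to 131 CPM) and Dysf (72.5 to 96.9 CPM). Which cells made the transcripts of the 5 lists was not measured in this bulk RNA, for the Mef2 genes and for Utrn, Sgcb and Dysf as well. In these lists 3 genes had an unadjusted p under 0.05, namely Phka1 (log2 fold change 0.22), Eya1 (-0.46) and Eya4 (-0.46), with adjusted p of 0.485, 0.502 and 0.501 in edgeR's quasi-likelihood test, and they are named after their values were seen.

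Markers of other tissues were read in the same libraries, and their part in the results was not tested. The summed level of 10 cardiac markers was 131, 121 and 188 CPM in controls 1 to 3 and 181, 172 and 110 CPM in mutants 1 to 3, most of it from Tnnt2 (83.5 to 154 CPM), which embryonic skeletal muscle also expresses. Of these markers, Nppa, Nppb, Myl7 and Nkx2-5 were at 0 in at least 1 library, and the most that any of them reached was 3 counts. The others were counted in every library. Beside Tnnt2 these were Myl2 at 137 to 739 counts, Myh6 at 47 to 468 and Tbx5 at 156 to 288. Tnni3 had 50 to 111 counts and Ryr2 had 34 to 88. The 8 smooth muscle markers summed to 862, 447 and 578 CPM in controls 1 to 3 and 545, 569 and 620 CPM in mutants 1 to 3, with control 1 highest. The 10 cartilage markers summed to 7275, 9228 and 5159 CPM in controls 1 to 3 and 9536, 7117 and 7717 CPM in mutants 1 to 3. This sum was lowest in control 3, where the summed muscle level was highest (36324 CPM). It was highest in mutant 1, where the summed muscle level was the next highest (34295 CPM), so these sums did not show 1 opposite order. Col2a1 was the largest part of the cartilage sum and was itself highest in mutant 1 (5239.8 CPM). Acan was highest in mutant 3 (894 CPM). Sox9, Col9a1, Col11a1, Matn1, Matn3, Cnmd, Comp and Hapln1 were each highest in control 2, where the summed muscle level was 26449 CPM. The 6 bone markers summed to 34569, 33901 and 47947 CPM in controls 1 to 3 and 39310, 41353 and 39348 CPM in mutants 1 to 3, highest in control 3. Nearly all of that sum was Col1a1, at 47730 CPM in control 3. Ibsp (119.7), Sp7 (43.3), Dmp1 (6.75) and Spp1 (47.2 CPM) were each lowest in that library, but Sp7 was nearly equal in mutant 3 (43.5 CPM). Bglap, at 0.423 to 1.745 CPM over the libraries, was lowest in mutant 1 and had 0.469 CPM in control 3. The 5 tendon markers summed to 2989, 3152 and 3285 CPM in controls 1 to 3 and 2258, 2002 and 2339 CPM in mutants 1 to 3, without overlap. Tnmd was the 1 of these 5 that was called (log2 fold change -0.81, adjusted p = 0.0374, edgeR's quasi-likelihood test). Thbs4 was the only 1 of the 5 with a log2 fold change above 0 (0.017), and it was highest in mutant 3 (942 CPM). The 5 erythroid markers summed to 533, 1529 and 623 CPM in controls 1 to 3 and 278, 413 and 319 CPM in mutants 1 to 3, without overlap, and 0 of the 5 were called by edgeR. Of all genes tested, 14.4% had levels without overlap between the groups, and edgeR called 0.19%. The 7 markers of Schwann cells and nerve were at 30.4 to 50.4 CPM and the 5 endothelial markers at 719 to 817 CPM.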

How the data were processed

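Growth plate RNA of 3 control and 3 Idh1 mutant embryos was captured on oligo-dT beads with a strand-keeping kit and sequenced as single reads of 50 bases. Trim Galore 0.6.4, STAR 2.6.1d, featureCounts 1.6.4 and DESeq2 1.28.1 are named in the submitters' processing notes, with GRCm38 as the build. The authors deposited whole-number counts for each gene, not normalized, counted over exons and, per the file headers, without regard to strand, and the number of per-sample columns not used was 0. Reads that map to several genes or to overlapping genes were not counted.

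From these counts, edgeR 4.0.16 in R 4.3.3 compared the groups by genotype alone (filterByExpr with a minimum count of 10 and a total of 15, TMM factors, glmQLFit and glmQLFTest, Benjamini-Hochberg adjustment over 16813 genes, threshold 0.05). CPM used the TMM factors, and RPKM divided them by the exon length in the files. Counts of replicates differed by more than sampling noise (11.6 to 45.1 for chi-square over its degrees of freedom). The 50-base windows came from GENCODE transcripts of the same build. The ratio of Chrng to Chrne was not computed because Chrne had 0 counts in 1 library. All 38 genes are named, with the 3 most abundant genes and any called genes of each further list, and marker genes. The members and lists were chosen with earlier results of these data known. The alternatives were DESeq2 1.42.0, RLE factors, no low-count filter, the replicate number as a block in both tools, scaling to the members' summed count, unique windows in place of exon length, and each library left out in turn. Functions were tested on simulated counts. The single-cell part of the study was not used here. Python 3.11.15 with matplotlib 3.10.9 drew the figures.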

Additional observations from a re-analysis of the deposited data

How the results depend on the processing

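The number of the 38 genes called was 0 in every alternative run. An unadjusted p under 0.05 in edgeR's quasi-likelihood test was reached by 3 of the 38 without the low-count filter. Without control 3 it was reached by 2 of them and without mutant 3 by 4, and in the other runs by 0. The number of all genes called moved from 32 to 193 with DESeq2, to 259 without the low-count filter and to 3 to 17 with a library left out, and the cause was not tested. By RLE factors it was 32 and with scaling to the members' summed count it was 45. With the replicate number as a block, 3 genes were called by edgeR and 96 by DESeq2. The correlations of same-numbered libraries' deviations from their group means were -0.12, 0.01 and -0.10 over 16782 genes, which showed no pairing by number. These deviations hold every difference between the libraries of a group, so they cannot decide whether the numbers stand for litters. The lowest count of a member in a library was 88.

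The log2 fold changes of the members were mostly small, so that their sign often turned. Under the 6 other settings, 213 of 228 values kept their direction and 15 reversed. Scaling to the members' summed count gave Myh2 -0.042, Myh4 -0.0030, Tnni2 -0.023, Myom1 -0.034, Casq1 -0.020 and Myf5 -0.020. Without the low-count filter Tnni2 was -0.00037, Myom1 -0.0018 and Casq1 -0.0029, and Casq1 was -0.00024 in DESeq2 and -0.00028 with RLE factors. With the replicate block Actn2 was 0.0088 in edgeR and 0.0075 in DESeq2, and Myf5 was -0.042 and -0.050. Leaving out a library reversed 33 of the 38 genes at least once.

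With 1 library left out, the values ranged from -0.30 to 0.13 for Acta1, -0.0057 to 0.42 for Myh1, -0.13 to 0.23 for Myh2, -0.16 to 0.12 for Myh3, -0.091 to 0.22 for Myh4, -0.11 to 0.71 for Myh7, -0.22 to 0.13 for Mylpf, -0.023 to 0.31 for Myl1, -0.29 to 0.083 for Myl4, -0.25 to 0.16 for Tnnt1, -0.077 to 0.20 for Tnnt3, -0.10 to 0.36 for Tnni1, -0.13 to 0.17 for Tnni2 and -0.11 to 0.24 for Tpm2. They ranged from -0.14 to 0.25 for Actn2, -0.17 to 0.058 for Actn3, -0.094 to 0.29 for Ttn, -0.26 to 0.13 for Neb, -0.097 to 0.15 for Myom1, -0.068 to 0.29 for Mybpc1, -0.039 to 0.24 for Ckm, -0.24 to 0.088 for Des, -0.17 to 0.44 for Ryr1, -0.10 to 0.38 for Cacna1s, -0.044 to 0.36 for Atp2a1 and -0.088 to 0.18 for Casq1. For the factors and receptor subunits the ranges were -0.61 to 0.075 for Myod1, -0.33 to 0.22 for Myog, -0.48 to 0.35 for Myf5, -0.029 to 0.41 for Myf6, -0.54 to 0.25 for Pax7, -0.21 to 0.68 for Chrna1 and -0.18 to 0.70 for Chrng. Among the ratios, they were -0.42 to -0.11 for Myh3 to Myh8, -0.26 to -0.12 for Myl4 to Myl1, -0.11 to 0.62 for Myh7 to the adult fast chains, -0.12 to 0.20 for Tnni1 to Tnni2 and -0.16 to 0.094 for Tnnc1 to Tnnc2. Counting unique windows in place of exon length gave shares of 0.591% for Myh2 and 0.518% for Myh1. The mean ratios were then 0.155 for Tnnc1 to Tnnc2, 0.144 for Tnnt1 to Tnnt3 and 0.0572 for Myl4 to Myl1. A change of length moves a ratio of 1 gene to 1 other by the same factor in every library. It could therefore not alter the log2 differences between groups of such ratios. For Myh7 to the summed adult fast chains, where it could, the difference stayed on the same side of 0.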

Other observations

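The slow light chains Myl3 and Myl2 are no members and were read beside Myh7, which was highest in mutant 2. Myl3, the slow essential light chain, had 19.0, 21.2 and 29.3 CPM in controls 1 to 3 and 18.9, 61.8 and 22.6 CPM in mutants 1 to 3, and mutant 2 stood above the rest. Myl2, the slow regulatory light chain, had 9.93, 24.1 and 6.97 CPM in controls 1 to 3 and 5.80, 28.0 and 8.88 CPM in mutants 1 to 3, and was high in mutant 2 and control 2. Not every slow or cardiac gene was highest in mutant 2. Among the slow troponins, Tnnc1 was highest there (123 CPM), but Tnnt1 (299 CPM) and Tnni1 (213 CPM) were highest in control 3. The cardiac chain Myh6 had 10.7 CPM in mutant 2 and 16.9 CPM in control 3, and Tnnt2 had 120.2 CPM in mutant 2 and 154 CPM in control 3.

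Of the 17 genes tested from the list of the nerve-muscle contact and the membrane complex, 7 were lowest in control 2, where Chrna1 and Chrng were lowest too, and 8 were lowest in mutant 3. Over all genes tested, control 2 was lowest for 19.6% and mutant 3 for 15.5%. Chrnd, the delta subunit of the receptor, had 21.3, 10.6 and 38.5 CPM in controls 1 to 3 and 35.0, 21.3 and 17.4 CPM in mutants 1 to 3. Musk, the kinase that gathers receptors at the contact, had 7.42, 3.78 and 13.5 CPM in controls 1 to 3 and 12.3, 7.51 and 5.89 CPM in mutants 1 to 3. Chrnb1, the beta subunit, had 24.6, 23.2 and 35.4 CPM in controls 1 to 3 and 39.5, 33.7 and 21.9 CPM in mutants 1 to 3, and was lowest in mutant 3. Myl3, Myl2, Myh6, Tnnt2, the slow troponins, Chrnd, Musk and Chrnb1 were named here after their values were seen, and their differences between libraries were not tested.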
